A study of Mus musculus with 6 samples.

Results

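The unfolded protein response and the integrated stress response were followed through 32 genes in macrophages that were grown from mouse bone marrow (bone marrow-derived macrophages, BMDM). The genes were taken by symbol from the deposited expression table, and all 32 were found among its 55291 genes. They comprise 14 chaperones and folding enzymes of the endoplasmic reticulum (ER), 5 genes of ER-associated degradation, 4 genes of stress sensors and the transcription factors they act through, and 9 genes of the Atf4 branch. The design has 6 poly(A) RNA libraries, 3 of BMDM without treatment and 3 of BMDM pretreated with apoptotic cells (AC). The labels name no strain, sex or age of the mice and no source, dose or duration for the apoptotic cells. They do not say whether each replicate was its own culture or animal. The p-values therefore describe the spread among these libraries only, and that spread may be technical.

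Proteins of the secretory pathway fold in the ER with the help of chaperones. When unfolded protein accumulates there, the sensors encoded by Ern1 (IRE1), Eif2ak3 (PERK) and Atf6 raise the transcription of chaperone and degradation genes, in part through splicing of Xbp1 mRNA. PERK and 3 further kinases that sense amino acid shortage, heme shortage or viral RNA all phosphorylate the translation factor eIF2, which lowers protein synthesis while favouring translation of Atf4 mRNA. The Atf4 protein then drives genes of amino acid supply, of stress adaptation and, through Ddit3 (CHOP), of cell death. Phosphorylation of eIF2, Xbp1 splicing and Atf6 cleavage do not show in a table of transcript levels per gene.

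Some chaperone genes and some Atf4-branch genes carry different elements in their promoters. These are shown here because the levels of the 2 branches differ in their pattern over the libraries. A link between elements and pattern was not tested. RefSeq promoters (build GRCm38.p6, 250 bases before to 50 after a start site) matched 28 of the 32 genes, Manf, Hyou1, Atf6 and Ppp1r15b being the others. The ER stress response element, written CCAAT, 9 bases of any kind and CCACG, is known to be bound by Atf6 and Xbp1 together with a CCAAT-binding factor. On either strand it occurred in 7 of 12 chaperone genes, in 1 of 5 degradation genes (Syvn1), and in 0 of 3 sensor and 0 of 8 Atf4-branch genes, against 0.119% of all 32851 promoters of this length in the table. The related element II, written ATTGG, any base and CCACG, occurred in Herpud1 and Dnajb11 and in 0.0365% of all promoters. The C/EBP-ATF element, written here as TGATG, any base and AA, is a binding form for Atf4 paired with a C/EBP protein. It occurred in 3 of 8 Atf4-branch genes (Chac1, Trib3 and Asns), in Herpud1 and in 0 of 12 chaperone genes, against 3.97% of all promoters. The unfolded protein response element TGACGTGG occurred in 0 of the 28 genes and in 0.676% of all promoters. The other members had no match in this window, which says nothing of elements elsewhere. The promoters of 3 chaperone genes, of Herpud1 and of 3 Atf4-branch genes follow, in lower case with every motif match in capitals.
Hspa5, chr2:34771840-34772139, plus strand: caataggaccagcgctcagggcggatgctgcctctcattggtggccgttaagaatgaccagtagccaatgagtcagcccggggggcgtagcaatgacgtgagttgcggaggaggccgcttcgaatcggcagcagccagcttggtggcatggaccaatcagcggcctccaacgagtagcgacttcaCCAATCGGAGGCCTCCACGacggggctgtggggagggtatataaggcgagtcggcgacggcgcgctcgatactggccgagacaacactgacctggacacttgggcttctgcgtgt
Hsp90b1, chr10:86705395-86705694, minus strand: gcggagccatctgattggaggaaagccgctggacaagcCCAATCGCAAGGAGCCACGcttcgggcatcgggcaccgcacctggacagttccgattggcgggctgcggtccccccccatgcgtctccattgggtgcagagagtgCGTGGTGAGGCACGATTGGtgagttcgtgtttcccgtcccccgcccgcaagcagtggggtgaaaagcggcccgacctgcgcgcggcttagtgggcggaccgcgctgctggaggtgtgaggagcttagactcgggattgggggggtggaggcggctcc
Calr, chr8:84846882-84847181, minus strand: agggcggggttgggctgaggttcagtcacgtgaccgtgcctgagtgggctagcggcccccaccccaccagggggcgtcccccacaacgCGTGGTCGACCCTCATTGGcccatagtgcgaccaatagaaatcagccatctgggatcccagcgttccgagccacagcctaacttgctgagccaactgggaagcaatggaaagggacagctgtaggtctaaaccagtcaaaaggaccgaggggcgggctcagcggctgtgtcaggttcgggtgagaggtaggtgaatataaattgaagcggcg
Herpud1, chr8:94386179-94386478, plus strand: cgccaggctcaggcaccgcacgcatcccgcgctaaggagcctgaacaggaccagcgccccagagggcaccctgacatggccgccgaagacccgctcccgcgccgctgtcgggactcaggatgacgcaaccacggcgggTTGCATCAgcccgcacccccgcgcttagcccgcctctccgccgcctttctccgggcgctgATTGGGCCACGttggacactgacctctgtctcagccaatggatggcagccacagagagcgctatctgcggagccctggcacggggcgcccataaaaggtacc
Chac1, chr2:119350992-119351291, plus strand: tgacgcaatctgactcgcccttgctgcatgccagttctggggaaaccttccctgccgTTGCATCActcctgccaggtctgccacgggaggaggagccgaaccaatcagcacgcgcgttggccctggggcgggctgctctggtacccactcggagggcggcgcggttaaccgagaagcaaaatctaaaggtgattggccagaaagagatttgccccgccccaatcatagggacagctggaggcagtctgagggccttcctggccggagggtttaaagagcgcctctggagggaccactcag
Trib3, chr2:152344011-152344310, minus strand: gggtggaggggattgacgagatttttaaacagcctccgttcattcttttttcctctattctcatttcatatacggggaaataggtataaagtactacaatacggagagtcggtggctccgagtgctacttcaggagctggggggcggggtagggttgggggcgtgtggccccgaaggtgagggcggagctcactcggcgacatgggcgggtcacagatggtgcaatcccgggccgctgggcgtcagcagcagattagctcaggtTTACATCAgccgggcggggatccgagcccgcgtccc
Asns, chr6:7693160-7693459, minus strand: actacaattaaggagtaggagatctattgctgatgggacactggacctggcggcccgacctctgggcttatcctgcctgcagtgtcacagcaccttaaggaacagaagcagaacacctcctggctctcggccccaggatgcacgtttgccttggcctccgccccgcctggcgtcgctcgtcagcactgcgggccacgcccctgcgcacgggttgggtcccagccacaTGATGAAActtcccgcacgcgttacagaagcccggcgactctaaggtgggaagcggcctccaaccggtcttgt
Hsp90b1 carried 2 matches to the ER stress response element, and Herpud1 carried both an element II and a C/EBP-ATF match. The Trib3 match lay downstream of the annotated start site, at bases 15 to 22.

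**Figure D1:**
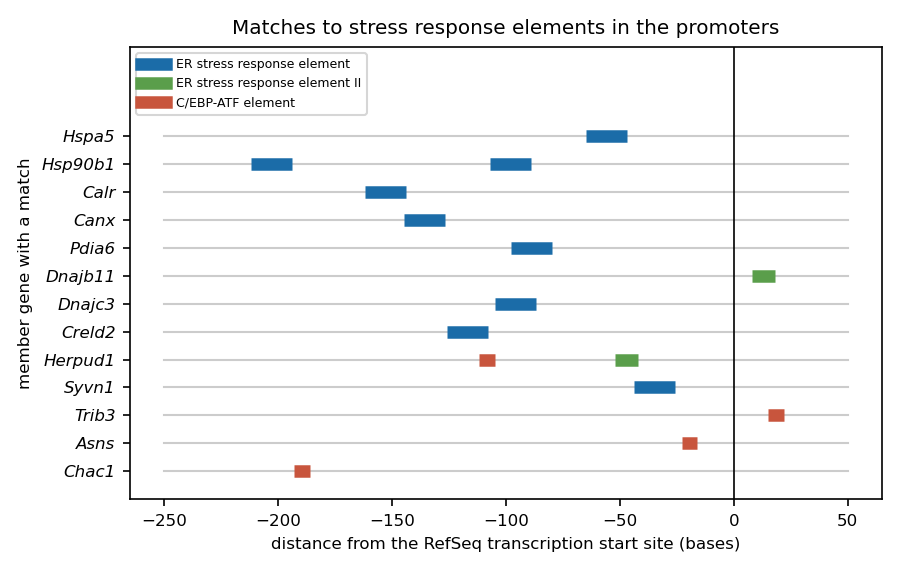
Positions of motif matches in the promoters of the 13 members that had one. The horizontal axis gives the distance in bases from the RefSeq start site, each grey line is 1 promoter and each coloured bar is 1 match. ER stress response elements (blue) lie in 7 chaperone promoters and in Syvn1, element II (green) in Dnajb11 and Herpud1, and C/EBP-ATF elements (red) in Chac1, Trib3, Asns and Herpud1.

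Recovered reads on genes ranged from 19347786 to 32684443 per library. The macrophage genes Adgre1 and Csf1r were high in all libraries, at 1641 to 2633 and 834 to 1288 TPM. Single libraries stood apart. Untreated replicate 1 had 83.7 TPM of the lysozyme gene Lyz2, against 9270 to 12451 TPM in the other 5. AC replicate 1 was low for long transcripts. In AC replicate 1 the median deviation from the mean of the 6 libraries was 0.10 log2 units for genes with under 2000 exonic bases and -0.40 for those with 6000 and over. That library held the lowest value of 47% of the 12603 genes tested. Untreated replicates 1 and 2 and AC replicates 1 and 2 held placental transcripts (summed marker level 26.2 to 232 TPM over 38 genes), while replicate 3 of each group had 0.232 and 0.634 TPM. Levels are given in TPM, transcripts per 1000000 after correction for gene length, so they can be compared roughly between genes. In AC replicate 1 that correction left the deviation with length given above. As the libraries are of bulk RNA, fewer expressing cells and less RNA per cell cannot be told apart.

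The comparison between the groups asks which of these stress genes AC pretreatment sets apart from the untreated state. No member differed beyond the spread between replicates. By limma on log2(TPM + 1), 0 of 32 members had an adjusted p under 0.05, as did 0 of all 12603 genes tested (0%), and voom on the recovered reads also called 0 members. All 32 members passed the filter on low values. At an unadjusted p under 0.05 there were 0 members, against 1.3% of all genes. Full separation of the 3 untreated from the 3 AC values was seen in 0 members and in 4.42% of all genes. The 95% interval of the difference lay inside 2-fold for 30 of the 32 members and inside 1.5-fold for 17, the exceptions at 2-fold being Trib3 and Chac1. Over all 12603 genes tested the interval lay inside 2-fold for 11010 and inside 1.5-fold for 5804. On the log2 scale the mean was lower after AC pretreatment in 23 of the 32 members, against 70.6% of all genes, so the members' direction was near that of the whole table. The median log2 difference was -0.08 over the members and -0.07 over all genes. Leaving out 1 library in turn moved every member's difference by over 1.5 times for at least 1 library and turned the sign for 20 of 32.

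**Figure D2:**
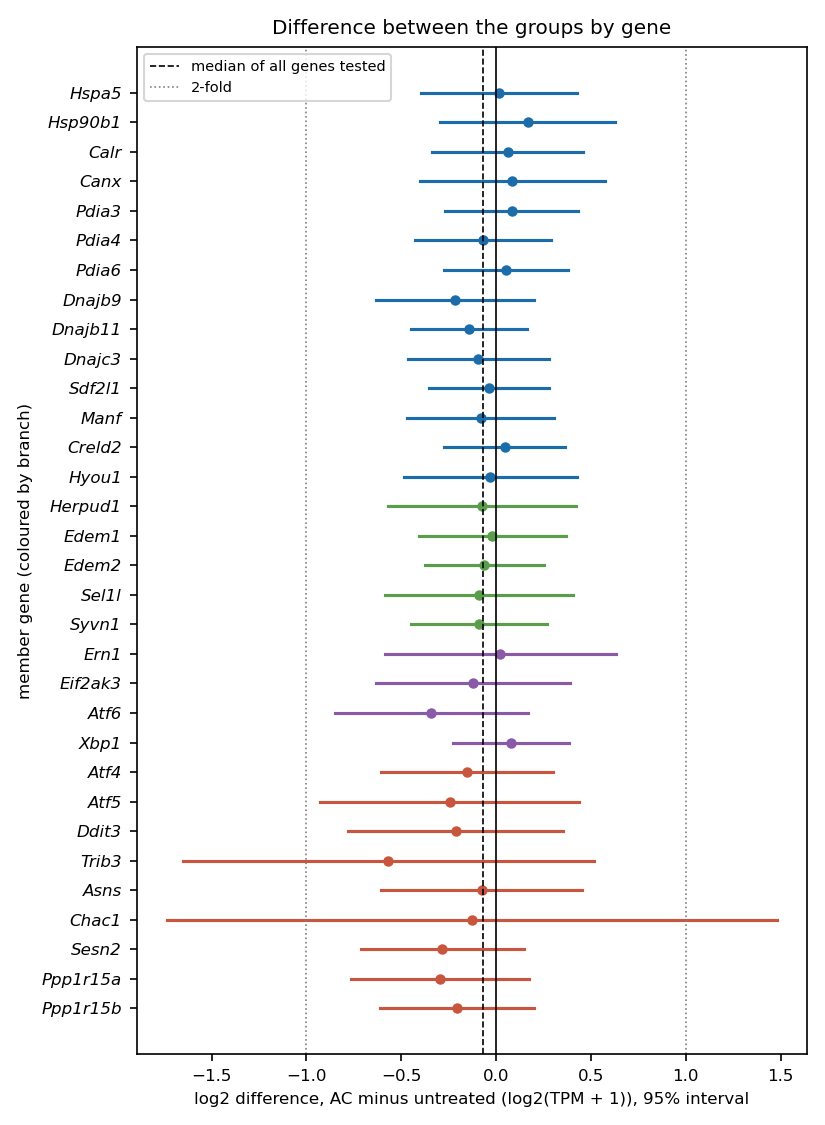
Log2 difference (AC minus untreated, log2(TPM + 1) scale) of each member, points with 95% intervals from limma, coloured by branch (chaperones blue, degradation green, sensors purple, Atf4 branch red). The dashed line is the median of all genes tested. All 32 intervals cross 0, and those of Trib3 and Chac1 reach beyond the dotted line at 2-fold.

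The chaperone branch was the most abundant, and its members went both ways, 7 with a higher and 7 with a lower mean in the AC libraries. Their median log2 difference was -0.01, with differences from -0.22 to 0.17. With median-of-ratios scaling the count was 9 higher and 5 lower, and with values as deposited 3 higher and 11 lower. Summed over the 14 genes, levels were 3077, 2711 and 3605 TPM in untreated replicates 1, 2 and 3 and 2869, 3509 and 3264 TPM in AC replicates 1, 2 and 3. The highest and the lowest sum both belonged to the untreated group, so the groups overlapped fully.

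Calr, which encodes the calcium-binding lectin chaperone calreticulin, had the highest level of all members. It stood at 798, 635 and 941 TPM in the untreated and at 737, 837 and 876 TPM in the AC replicates 1, 2 and 3. The log2 difference was 0.06 ± 0.17 (SE, adjusted p = 1 by limma). Hspa5 encodes BiP, the ER Hsp70 that holds the sensors inactive in unstressed cells. Its levels were 520, 466 and 659 TPM in the untreated and 473, 645 and 542 TPM in the AC replicates, a difference of 0.02 ± 0.18. For both genes untreated replicate 2 was lowest and untreated replicate 3 highest.

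Hsp90b1, the ER Hsp90 known as GRP94 that folds integrins and Toll-like receptors, had the largest higher difference, at 0.17 ± 0.20. It measured 241, 205 and 297 TPM in the untreated and 217, 330 and 290 TPM in the AC replicates. Canx encodes calnexin, the membrane-bound counterpart of calreticulin, and was at 202, 184 and 253 TPM and at 165, 253 and 269 TPM. In Hspa5, Hsp90b1, Calr, Canx and Pdia6, a disulfide isomerase gene, the 3 highest libraries were untreated replicate 3 and AC replicates 2 and 3. That order held for 5 of 14 chaperone genes and 12.5% of all genes tested, and for 3 of 14 and 13% with median-of-ratios scaling.

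Among the disulfide isomerases, which form and rearrange disulfide bonds, Pdia3 averaged 515 ± 44.7 TPM (SD, n = 3) in untreated and 548 ± 84.4 TPM in the AC libraries, Pdia6 144 ± 18.3 and 149 ± 9.65 TPM, and Pdia4 109 ± 10 and 104 ± 15.6 TPM. The J-domain cochaperone genes of BiP had lower AC means without passing the test. Dnajb9 averaged 52.9 ± 4.83 and 46.0 ± 10.5 TPM, Dnajb11 126 ± 13.5 and 114 ± 5.19 TPM, and Dnajc3, which also inhibits PERK, 51.5 ± 3.39 and 48.6 ± 8.06 TPM. Hyou1 encodes a nucleotide exchange factor of BiP and averaged 38.2 ± 3.13 and 38.2 ± 10.2 TPM, with 29.6 TPM in AC replicate 1 and 49.5 TPM in AC replicate 3. Sdf2l1, a partner of the J-domain proteins, averaged 172 ± 13.7 and 168 ± 17.1 TPM, Manf, a secreted BiP-binding factor, 64.8 ± 11.1 and 60.9 ± 7.80 TPM, and Creld2, a redox protein of the ER, 57.4 ± 0.685 and 59.5 ± 6.75 TPM. Over the 14 genes the highest library exceeded the lowest by 1.23-fold (Sdf2l1) to 1.67-fold (Hyou1).

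All 5 degradation genes had lower AC means, against 70.6% of all genes tested, with small log2 differences from -0.09 to -0.02. With median-of-ratios scaling, or without AC replicate 1, 3 of 5 had lower AC means, and without untreated replicate 1, 2 of 5. Edem1, a lectin that extracts misfolded glycoproteins from the folding cycle, was the most abundant. It stood at 124, 112 and 121 TPM in the untreated and at 92.3, 129 and 135 TPM in the AC replicates 1, 2 and 3. Edem2, which starts mannose trimming of such proteins, was at 59.6, 59.1 and 52.8 TPM and at 60.5, 51.5 and 52.4 TPM. For both genes the groups overlapped, and AC replicate 1 was the lowest library for Edem1 and the highest for Edem2.

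Sel1l and Syvn1 encode the adaptor and the ubiquitin ligase (HRD1) of the main degradation complex. Sel1l averaged 51.6 ± 4.73 and 49.6 ± 14.1 TPM, with AC replicate 1 lowest at 34.7 and AC replicate 3 highest at 62.8 TPM. Syvn1 averaged 41.5 ± 5.80 and 38.7 ± 3.21 TPM. Herpud1, a membrane component of that complex whose promoter held both kinds of element, measured 32.4, 30.7 and 18.9 TPM in the untreated and 25.9, 26.9 and 23.1 TPM in the AC replicates. Its lowest library, untreated replicate 3, was the highest for Hspa5 and Calr. Summed degradation levels were 277 to 320 TPM in the untreated and 251 to 315 TPM in the AC libraries.

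In the sensor branch 2 of the 4 genes had lower AC means. Atf6 encodes a membrane-bound transcription factor that is cut free under ER stress, and had the largest difference of the branch, at -0.34 ± 0.22 (adjusted p = 1 by limma). It stood at 73.7, 63.3 and 60.1 TPM in the untreated and at 37.5, 52.2 and 69.5 TPM in the AC replicates. AC replicate 3 lay within the untreated range, and AC replicate 1 was the lowest of all. Ern1, the kinase and RNase that splices Xbp1, measured 21.9, 17.9 and 16.5 TPM and 12.2, 21.4 and 25.7 TPM. Eif2ak3, the eIF2 kinase PERK, had the lowest level of the branch, at 9.88, 8.30 and 9.12 TPM and at 5.98, 8.73 and 10.7 TPM. In all 3 sensor genes AC replicate 1 was lowest. These transcripts are long, with 9231, 8173 and 6026 merged exon bases for Atf6, Ern1 and Eif2ak3, and genes with 6000 bases and over had a median deviation of -0.40 in that library. The part of transcript length in these values was not tested. Without AC replicate 1 the differences were -0.12 for Atf6, 0.32 for Ern1 and 0.08 for Eif2ak3. With the trend of the values over length removed, an alternative added after the data were seen, the differences were -0.28 for Atf6, 0.09 for Ern1 and -0.05 for Eif2ak3, and the branch median was 0.02. Xbp1 stood at 130, 120 and 134 TPM and at 127, 151 and 128 TPM, a difference of 0.08 ± 0.13. The table does not separate its spliced and unspliced forms.

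The Atf4 branch had lower AC means in 9 of 9 genes, against 70.6% of all genes tested. The log2 differences ran from -0.57 to -0.08 with a median of -0.21, against -0.07 over all genes. None passed the test, and the groups overlapped in every one. The count was 9 of 9 also with median-of-ratios scaling and with values as deposited. It was 7 of 9 without untreated replicate 2 and without AC replicate 3. The median moved to -0.08 without untreated replicate 2, to -0.43 without untreated replicate 3 and to -0.45 without AC replicate 1. Summed levels were 805, 938 and 653 TPM in the untreated and 900, 611 and 594 TPM in the AC replicates 1, 2 and 3, so AC replicate 1 stood beside untreated replicates 1 and 2, and untreated replicate 3 beside the other AC libraries.

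Atf4, the transcription factor at the head of the branch, was its most abundant transcript. It stood at 314, 340 and 230 TPM in the untreated and at 314, 260 and 218 TPM in the AC replicates, a difference of -0.15 ± 0.20. Ddit3, which encodes the pro-apoptotic factor CHOP, measured 206, 260 and 188 TPM and 276, 157 and 149 TPM, a difference of -0.21 ± 0.25. Its highest and its lowest library were both AC pretreated. Atf5, a factor translated under the same control as Atf4, was at 115, 167 and 92.5 TPM and at 154, 74.2 and 93.2 TPM (difference -0.25 ± 0.30).

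Chac1 (mm10 chromosome 2, 119351229 to 119354381), which encodes an enzyme that degrades glutathione, varied more between libraries than any other member. It stood at 4.67, 4.91 and 0.383 TPM in untreated replicates 1, 2 and 3 and at 7.34, 0.984 and 1.14 TPM in AC replicates 1, 2 and 3, a 19.2-fold range. These levels rested on 55, 87 and 4 reads in untreated and 109, 11 and 13 reads in the AC libraries. The high and low levels each occurred in both groups, and the difference between groups was -0.13 ± 0.70. Trib3, a pseudokinase gene induced by Atf4 and CHOP, had the next widest range, 4-fold. It measured 16.2, 21.1 and 9.06 TPM in the untreated and 21.2, 5.31 and 7.38 TPM in the AC replicates, a difference of -0.57 ± 0.47. Without AC replicate 1 the difference of Trib3 was -1.11, and without AC replicate 2 it was -0.20. Sample quality weights were 7.24 for untreated replicate 2 and 2.98 for AC replicate 2, and lowest for AC replicate 1 (0.181). That fit leaned mostly on 1 library of each group. With these weights the difference of Trib3 was -1.55 (adjusted p = 0.0376 by limma). Trib3 was then the 1 member called, among 276 of all genes. An unadjusted p under 0.05 by limma was then seen in 16 of 32 members and in 3475 of all 12603 genes tested. In the main fit these counts were 0 and 164.

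Asns, the asparagine synthetase gene, stood at 20.4, 26.8 and 17.7 TPM in the untreated and at 27.1, 18.7 and 16.2 TPM in the AC replicates. Sesn2, which restrains mTORC1 signalling, averaged 36.3 ± 6.87 and 29.4 ± 4.14 TPM (difference -0.29 ± 0.19). The paired phosphatase subunits that reverse eIF2 phosphorylation differed in pattern. Ppp1r15a, the stress-induced subunit GADD34, measured 28.5, 24.3 and 19.6 TPM and 23.9, 15.9 and 18.7 TPM. Ppp1r15b, the constitutive subunit, measured 58.0, 54.8 and 67.8 TPM and 42.5, 52.4 and 62.7 TPM, with AC replicate 1 lowest. In the 8 genes of the branch other than Ppp1r15b the 3 highest libraries were untreated replicates 1 and 2 and AC replicate 1. That order held for 8 of 9 genes under both column-sum and median-of-ratios scaling, against 11.1% and 13.7% of all genes tested. It was read from these same values and carries no test. These 8 genes have 1637 (Chac1) to 3475 (Sesn2) merged exon bases. Genes with under 2000 bases had median deviations of 0.076, 0.078 and 0.096 log2 units in those 3 libraries. In untreated replicate 3 and AC replicates 2 and 3 these were -0.037, -0.004 and -0.126. Of the 14 chaperone genes, which include short ones such as Sdf2l1 (1108 bases), 0 had that order. The part of transcript length in the pattern was not tested.

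**Figure D3:**
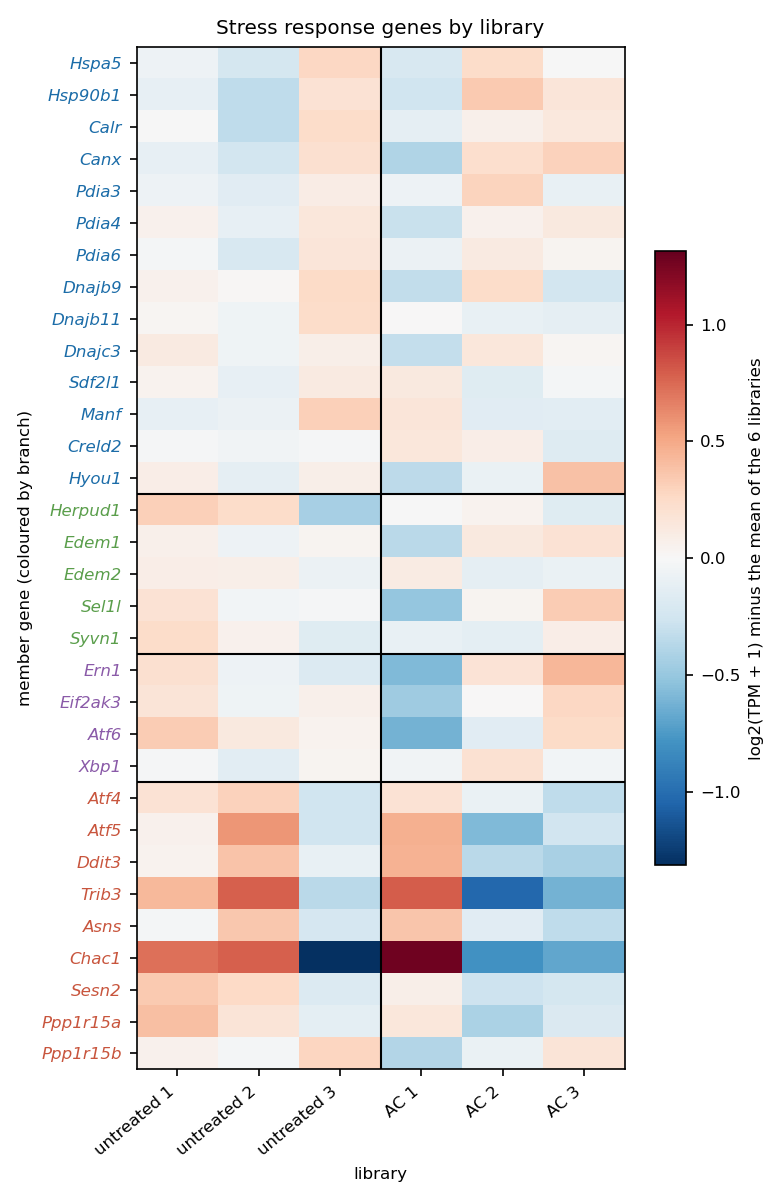
Level of each member in each library as log2(TPM + 1) minus the mean of the 6 libraries (red above, blue below), with genes in rows coloured and ruled off by branch and a vertical line between the groups. Untreated replicates 1 and 2 and AC replicate 1 are red for Atf4, Atf5, Ddit3, Trib3 and Chac1, and AC replicate 1 is blue for Atf6, Ern1, Eif2ak3 and Sel1l.

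**Figure D4:**
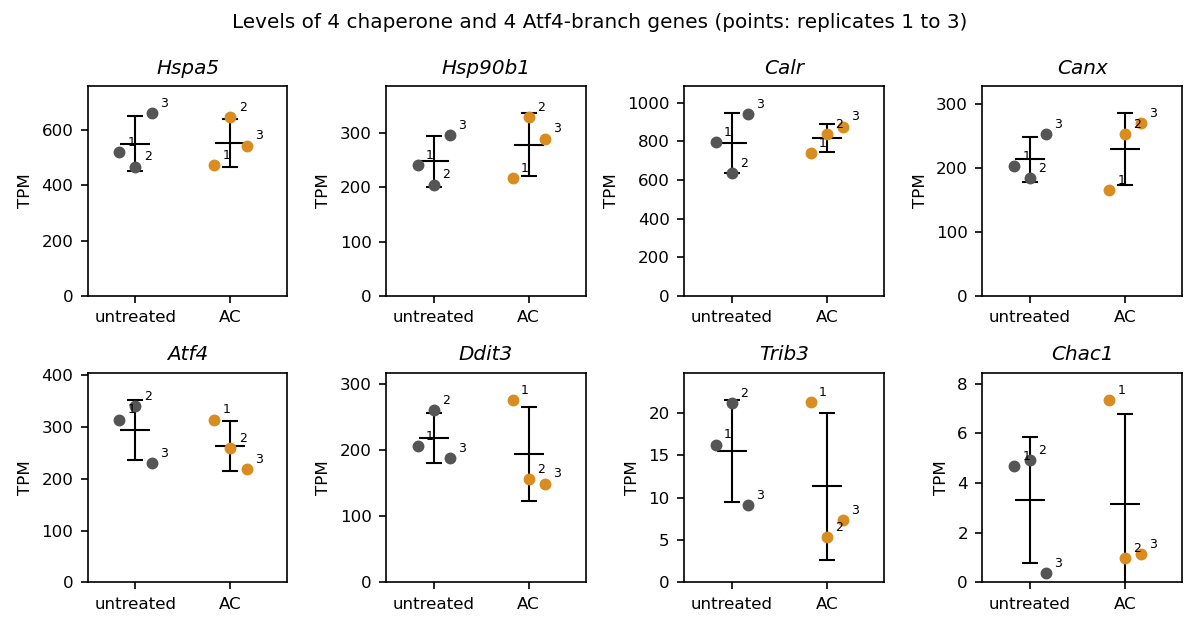
TPM of 4 chaperone genes (upper row) and 4 Atf4-branch genes (lower row). Points are libraries with their replicate number, bars are the mean ± SD of each group (n = 3), and the lower bar of Chac1 in AC is cut off at 0. Replicate 3 of untreated and replicates 2 and 3 of AC lie high for the chaperones and low for Chac1 and Trib3, so the groups overlap in every panel.

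The branches were also compared within each library, where a common scaling factor drops out. A deviation that depends on gene length does not drop out. Among the abundant genes Calr and Hspa5 have 2880 and 4229 merged exon bases, and Atf4 and Ddit3 have 2358 and 1713. The part of transcript length in the ratios below was not tested. The chaperone sum was 3.82, 2.89 and 5.52 times the Atf4-branch sum in untreated replicates 1, 2 and 3 and 3.19, 5.75 and 5.49 times in AC replicates 1, 2 and 3. The 3 libraries with the highest Atf4-branch sums were the 3 with the lowest chaperone sums, and they came from both groups. Degradation sums followed neither branch, with the highest in untreated replicate 1 and the lowest in AC replicate 1. The log2 ratio of the AC mean to the untreated mean was 0.04 for the chaperone sum, -0.05 for degradation, -0.03 for sensors and -0.19 for the Atf4 branch. Each of these differences was smaller than the SD between replicates.

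**Figure D5:**
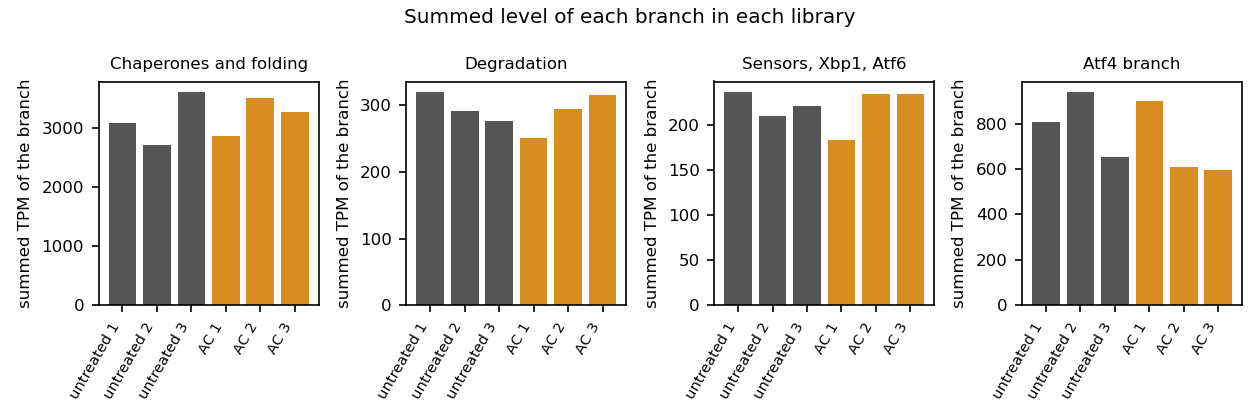
Summed TPM of each branch in each library (untreated grey, AC orange, bars from 0). Chaperone sums are lowest and Atf4-branch sums highest in untreated replicates 1 and 2 and AC replicate 1, and the sensor and degradation sums are lowest in AC replicate 1.

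Markers of other cell types were read beside these patterns. The summed level of 10 plasma cell and B cell markers was 26.9, 20.7 and 41.0 TPM in the untreated and 21.3, 42.3 and 48.6 TPM in the AC replicates 1, 2 and 3, high in the same libraries as the chaperones. The largest parts were Sdc1, a syndecan gene, at 4.12 to 25.8 TPM over the libraries, and Prdm1, a transcription factor gene, at 10 to 18.5 TPM. Both were highest in the same 3 libraries as the chaperone sum. Jchain and Mzb1 were at most 0.343 and 0.118 TPM. The part of such cells in the chaperone pattern was not tested. The summed level of 10 neutrophil markers was 73.2, 47.9 and 38.1 TPM and 59.2, 46.2 and 40.7 TPM. The sum was highest in the same 3 libraries as the Atf4 branch, but untreated replicate 2 lay only narrowly above AC replicate 2. The markers did not all share that order. S100a9 did, while Mmp8 was highest in AC replicate 2 (20.8 TPM). S100a8 was higher in AC replicate 2 (10.6 TPM) than in untreated replicate 2 (6.78 TPM). Ly6g was at 0 in all but untreated replicate 1 (0.295 TPM). The part of neutrophils in the Atf4-branch pattern was not tested. Among the 11 T-lineage markers Cd4 reached 16.8 TPM, and the other 10 stayed under 1 TPM throughout. The 8 fibroblast markers summed to at most 1.82 TPM, 6 erythroid markers to at most 17.5 TPM and 6 epithelial markers to 0.650 to 1.71 TPM in the untreated and 2.10 to 5.17 TPM in the AC libraries. Among the 4 libraries with placental transcripts the median difference was -0.37 for the Atf4 branch, -0.28 for sensors, -0.25 for degradation and 0.09 for chaperones, against -0.13 over all genes. Between the other 2 libraries, 1 of each group and without a test, the medians were -0.07, 0.21, 0.24 and -0.13.

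The other genes of the pathway gave 0 calls in either direction by limma. Of 32 further Atf4 target genes in the table, many of amino acid supply and tRNA charging, 26 passed the filter on low values. Lower AC means were seen in 24 of these, against 70.6% of all genes tested, with a median of -0.16. Nars, which encodes asparaginyl-tRNA synthetase, stood at 182, 178 and 178 TPM in the untreated and at 142, 150 and 160 TPM in the AC replicates. All untreated libraries lay above all AC libraries, and the difference was -0.26 ± 0.12 (adjusted p = 1 by limma, unadjusted p = 0.066). Yars, the tyrosyl counterpart, differed by -0.21 ± 0.15 and Ddit4, an mTORC1 inhibitor gene near the filter, by -0.45 ± 0.28. Slc3a2, the heavy chain of amino acid exchangers, also had groups that did not overlap (424 ± 12.7 and 383 ± 25.6 TPM). It was separated only narrowly, with 409.8 TPM in untreated replicate 1 and 409.3 TPM in AC replicate 1. Counting it made 2 of 26 targets without overlap, against 4.42% of all genes. The same 3 libraries as in the Atf4 branch were highest for 10 of the 26 targets. Nupr1, a stress-induced chromatin protein gene, stood at 54.8, 79.4 and 39.3 TPM and at 78.7, 35.3 and 34.7 TPM, and Phgdh, the first enzyme of serine synthesis, at 5.54, 7.87 and 2.96 TPM and at 8.29, 3.24 and 4.68 TPM. Slc3a2, Nupr1 and Phgdh were named after their values were seen.

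Among 20 other regulators, 15 had lower AC means (median -0.10), against 70.6% of all genes tested. Atf3, a factor induced by Atf4 and by inflammatory signals, was at 858, 844 and 677 TPM in the untreated and at 639, 592 and 556 TPM in the AC replicates, without overlap. Its unadjusted p was 0.023 with an adjusted p of 1 by limma. Rtcb, the ligase that joins Xbp1 exons after Ern1 cuts them, averaged 133 ± 5.96 and 115 ± 3.90 TPM, also without overlap. Cebpb, a partner of Atf4 on C/EBP-ATF elements, had a higher AC mean, at 145 ± 23.8 and 200 ± 37.3 TPM (difference 0.46 ± 0.19, unadjusted p = 0.040, adjusted p = 1 by limma), with overlapping groups. Atf3 and Cebpb were the 2 of 20 regulators with an unadjusted p under 0.05, against 1.3% of all genes, and Atf3 and Rtcb the 2 of 20 without overlap, against 4.42%. The differences of Atf3 and Cebpb had opposite signs.

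The remaining lists stayed near the median of all genes, of which 70.6% had a lower AC mean. Of 21 tested folding enzymes and cofactors 15 had lower AC means (median -0.05), with Serp1, a translocon-associated protein gene, at 449 ± 41.3 and 386 ± 48.2 TPM, Mogs, the first glucosidase of glycan trimming, at 44.0 ± 6.87 and 37.9 ± 4.13 TPM and Sil1, an exchange factor of BiP, at 37.0 ± 5.98 and 32.3 ± 7.12 TPM. Of 19 genes of ER entry 17 were lower (median -0.07), with the translocon subunits Sec61g and Sec61b at -0.16 ± 0.16 and -0.24 ± 0.25 and Ssr2 at -0.13 ± 0.14. In the list of other degradation genes 17 of 18 were lower (median -0.10). Within it the ubiquitin ligase gene Rnf5 differed by -0.30 ± 0.24, the lectin gene Os9 by -0.20 ± 0.17 and the conjugating enzyme gene Ube2g2 by -0.19 ± 0.16.

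Outside the pathway, the genes whose profile over the 6 libraries was most like the mean centred profile of the 14 chaperones were Pyurf, Cbr2, Rab18, 1700001J03Rik and Dusp9. Their Pearson correlations with it were 0.981, 0.979, 0.979, 0.976 and 0.976, taken as the highest of all tested genes and given as a description. Rab18, a small GTPase of lipid droplets and the ER, was the most abundant of these. It stood at 38.8, 35.9 and 49.9 TPM in the untreated and at 34.2, 44.4 and 42.6 TPM in the AC replicates, while the other 4 stayed below 10 TPM.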

How the data were processed

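Poly(A) RNA of 6 libraries was read in pairs on an Illumina instrument, per the labels' protocols. Tools listed in the submitters' processing notes are featureCounts 2.0.3, Subread and STAR 2.7.10a, and the build is mm10, without their role or order. The annotation release and strand setting were not given in the sources used here. Overlapping and antisense genes are therefore uncertain. The authors deposited 1 table of 55291 genes, named as TPM, whose columns sum to 54732 to 92831. The deposited signal, times the merged exon length of GENCODE M21 and divided by 8.57, came to whole reads (within 0.02) for 98.4% of genes that had reads and a known length (23494 of 23870, each in every library). It is therefore a read number per exon base, not scaled for depth. 0 columns were left unused.

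Each column was rescaled to 1000000 (TPM), and log2(TPM + 1) was tested with limma 3.58.1 in R 4.3.3 for each gene that reached 1 TPM in 3 or more libraries. The fit used lmFit and eBayes with a trend, was 2-sided, and took Benjamini-Hochberg adjusted p under 0.05 as the threshold. A difference is on that log2 scale and understates the change of low genes. The script was tested on simulated data. Reads on genes limit the precision of low genes such as Chac1. Alternatives were another pseudocount, filter and scaling, voom, quality weights, a replicate block, and leaving out libraries.

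Members and lists were chosen with earlier results of these data known. Values in every library are given for members without overlap, the 2 highest of each branch, the 2 with the largest difference in each direction, the sensors, Atf4, Xbp1, Ddit3 and Hspa5, and for further members chosen after their values were seen. Each wider list gives the 3 genes with the smallest unadjusted p, and all genes the 5 most like the chaperone profile. Promoters are from RefSeq (GRCm38.p6).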

Additional observations from a re-analysis of the deposited data

How the results depend on the processing

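No member passed the threshold under any alternative but 1. With sample quality weights (7.24 for untreated replicate 2, 2.98 for AC replicate 2, 0.181 for AC replicate 1) 1 member, Trib3, passed at -1.55. Its adjusted p was 0.0376 by limma, the lowest for any member under the others being 0.775. With these weights 276 of all genes were called, and 3475 had an unadjusted p under 0.05 by limma. With values as deposited 12 of all genes were called, and without the eBayes trend 1. With a replicate block 0 members were called. Same-numbered libraries deviated from their group means with correlations of -0.06, 0.01 and 0.17. With 3 libraries per group, where single libraries stood apart, these values cannot decide whether the numbers pair the libraries.

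Several signs turned. With median-of-ratios scaling Sdf2l1 was 0.03, Hyou1 0.04, Edem1 0.05 and Edem2 0.01, and scaling without the most abundant genes gave 0.03, 0.03, 0.04 and 0.00. With the length trend removed, chosen after seeing the data, they were 0.02, 0.04, 0.05 and 0.00. Values as deposited gave Hspa5 -0.05, Calr -0.01, Pdia6 -0.02, Creld2 -0.02 and Ern1 -0.05. Quality weights gave Pdia4 0.12, Dnajb9 0.12, Dnajc3 0.14, Hyou1 0.04, Edem1 0.16, Sel1l 0.05 and Eif2ak3 0.03. With voom Sdf2l1 was 0.01, Hyou1 0.01 and Edem1 0.02. Among libraries with placental transcripts Sdf2l1 was 0.01, Manf 0.10 and Ern1 -0.27, and the degradation median was -0.25. Between the libraries without them it was 0.24, and the summed log2 ratio was -0.14 for chaperones and 0.19 for degradation. The cause was not tested.

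Leaving out 1 library in turn turned the sign of 20 members. The ranges were Hspa5 -0.10 to 0.16, Calr -0.09 to 0.20, Canx -0.05 to 0.30, Pdia3 -0.04 to 0.15, Pdia4 -0.15 to 0.06, Pdia6 -0.04 to 0.14, Dnajc3 -0.19 to 0.04, Sdf2l1 -0.11 to 0.03, Manf -0.18 to 0.05, Creld2 -0.02 to 0.14, Hyou1 -0.23 to 0.13, Herpud1 -0.31 to 0.06, Edem1 -0.12 to 0.15, Sel1l -0.28 to 0.14, Syvn1 -0.19 to 0.01, Ern1 -0.19 to 0.32, Eif2ak3 -0.29 to 0.08, Xbp1 -0.00 to 0.12, Asns -0.28 to 0.08 and Chac1 -0.82 to 0.24. Chac1 rests on 4 to 109 reads per library.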
